A study of Mus musculus with 11 samples.

Results

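A set of 9 genes of vitamin uptake and biotin handling were followed in mouse liver RNA: the vitamin transporters Slc5a6, Slc19a1, Slc19a2, Slc19a3, Slc23a1, Slc46a1 and Slc52a2, and the biotin enzymes Btd and Hlcs. They are 9 of the 24063 genes counted in the series, and 8 of the 9 passed the filter on low counts that left 12581 genes for testing. The set was chosen by gene name with earlier results of the same A2M against PBS contrast in view. It was thus in effect selected on the measured difference of Slc5a6. The fold changes of the members below are a description, and a threshold passed by a member is no independent test. The livers came from young adult male athymic nude mice of the strain labelled Cd1 nu/nu, which lack a thymus and mature T cells. According to the study's methods, mice of this kind carried subcutaneous human tumour cells. The A2M group (6 livers) received repeated intraperitoneal injections of activated human alpha2-macroglobulin, a proteinase inhibitor of blood plasma that is cleared by the liver, and the PBS group (5 livers) received buffer. The labels give each liver's treatment but not its tumour line, the time of day of collection, or a batch. The label fields do not state that each liver is a separate animal, so the spread between livers, and every adjusted p below, refers to these samples.

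Water-soluble vitamins cross membranes through dedicated carriers of the solute carrier families, and the liver is a main site of their storage and conversion to cofactors. The sodium-dependent multivitamin transporter, encoded by Slc5a6, carries biotin, pantothenate and lipoate. Biotinidase (Btd) releases biotin from degraded proteins, and holocarboxylase synthetase (Hlcs) attaches it to the carboxylases of gluconeogenesis, fatty acid synthesis and amino acid breakdown.

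Between 23545121 and 37357134 reads were assigned to genes in the A2M livers and between 31513210 and 46381692 in the PBS livers. A sum of 7 hepatocyte marker genes gave between 93612 and 110975 RPM (reads scaled to a common library total) in A2M livers and between 72457 and 117487 RPM in PBS livers, as the liver label requires. In all, 3 livers stood apart in markers of other cells. PBS replicate 2 held 791 RPM of 5 adrenal genes, against 4.77 to 24.6 RPM in A2M livers and at most 16.1 RPM in the other PBS livers. A2M replicate 1 held 332 RPM of macrophage and Kupffer cell genes, against at most 174 RPM in the other A2M livers and at most 158 RPM in PBS livers. PBS replicate 1 held 257 RPM of bile duct genes, against at most 47.0 RPM in A2M livers and 25.3 to 78.9 RPM in the other PBS livers, of which 3 were also above all A2M livers. None of the marker genes tested in the 10 marker lists passed an edgeR adjusted p of 0.01. The part of these cells in the results was not tested. In whole liver, fewer cells of a type and less RNA per cell cannot be told apart.

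Slc5a6 was higher in A2M livers than in PBS livers, with no overlap between the groups. The gene is annotated on the minus strand at chr5:31036036-31048924 (GRCm38). It measured 4.93, 4.74, 6.98, 7.10, 5.88 and 3.07 RPKM (reads per kilobase of exon, scaled to a common library total) in A2M livers 1 to 6, and 2.46, 2.54, 1.62, 2.42 and 2.28 RPKM in PBS livers 1 to 5. The lowest A2M liver, replicate 6, lay above the highest PBS liver, replicate 2, and the A2M livers spread more widely than the PBS livers. The means were 5.45 ± 1.53 RPKM in A2M livers (SD, n = 6) and 2.26 ± 0.374 RPKM in PBS livers (SD, n = 5). The fitted log2 fold change was 1.28 ± 0.19 (SE), or 2.43-fold. Between 198 and 1014 reads per liver stood behind these values.

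**Figure D1:**
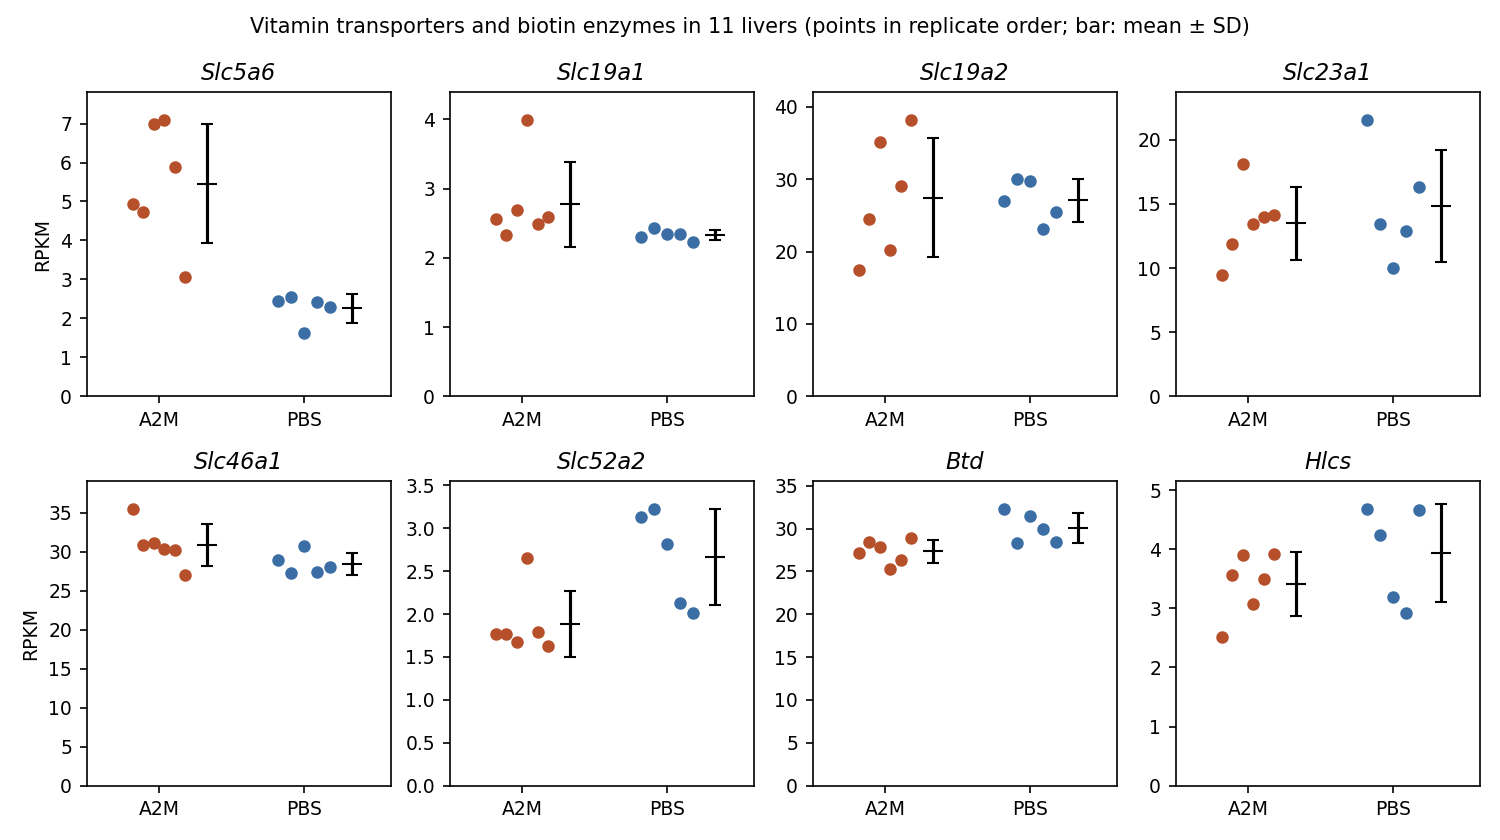
Level of the 8 members that passed the low-count filter, in RPKM, with 1 panel per gene, A2M livers (n = 6) left of PBS livers (n = 5). Points are livers in replicate order and bars are the mean ± SD, with every axis starting at 0. The groups are separate for Slc5a6, where the lowest A2M liver has 3.07 RPKM and the highest PBS liver 2.54 RPKM, and overlap in each of the other 7 panels.

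Slc5a6 is transcribed away from Atraid, the gene of a membrane protein of the all-trans retinoic acid response, and the stretch between a RefSeq start of Slc5a6 and the start of a GENCODE transcript of Atraid is shown because it lies upstream of both of these transcripts. Other GENCODE transcripts of both genes start farther out, so the whole annotated genes overlap here and the stretch lies inside both. It lies at chr5:31048563-31048634 of GRCm38.p6 and is given on the strand of Slc5a6, with its letters from RefSeq and capitals on the letters of a GC box, CCGCCC.
Slc5a6 to Atraid, 72 bases: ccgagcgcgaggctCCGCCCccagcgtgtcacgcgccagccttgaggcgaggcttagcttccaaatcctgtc
Of the stretch, 68.1% is G or C. Promoter windows of 250 bases before to 50 bases after a start could be searched for 7 of the 9 members, with 11 windows between them. A GC box (GGGCGG, both strands) was found in 9 of these windows, belonging to 6 members, against 35.7% of the 32851 windows of all genes. The E-box CACGTG, the letters bound by CLOCK and ARNTL, was in none of the 11 windows and in 7.15% of all windows. The D-box TTATGTAA was in none of the 11 windows and in 0.938% of all windows. At such shares 11 windows are too few for an absence to be informative, so nothing is read from either.

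Atraid measured 58.7 ± 3.36 RPKM in A2M livers (SD, n = 6) and 60.8 ± 3.94 RPKM in PBS livers (SD, n = 5), a log2 fold change of -0.03 ± 0.08 (SE, edgeR adjusted p = 0.888). Slc5a6 amounted to between 0.0539 and 0.133 of the Atraid RPKM in A2M livers and between 0.0246 and 0.0429 in PBS livers. Atraid differed only 1.23-fold between its highest and lowest liver, so these ranges restate the difference of Slc5a6. In GENCODE, the annotated exons of the 2 genes share 396 bases on opposite strands, 9.92% of the exon bases of Slc5a6. The reads were counted on RefSeq genes, whose exon overlap was not examined. The library does not keep the strand, so reads in those bases could belong to either gene. Cad, the next gene along the chromosome and the enzyme of the first steps of pyrimidine synthesis, measured 2.81 ± 1.03 RPKM in A2M livers (SD, n = 6) and 2.79 ± 0.611 RPKM in PBS livers (SD, n = 5). The fit gave it a log2 fold change of 0.04 ± 0.22 (SE; adjusted p of 0.967 by edgeR), and the A2M livers ranged more widely than the PBS livers.

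Among the members, Slc5a6 was the only one of the 8 tested past an adjusted p of 0.01 over all genes, and the only one whose groups did not overlap in RPKM. Over all genes tested, 0.215% passed that threshold, 27 genes in all, and 2.27% had groups that did not overlap. Because the set was chosen with this contrast known, the call of Slc5a6 is no independent evidence. The shares are given for scale and nothing is read from them. The edgeR call of Slc5a6 was close to the threshold. Of 11 fits that left out 1 liver each, it held in 1, without A2M replicate 6. The count of all genes called, 27 in the main fit, was 6 to 35 in these fits. The log2 fold change of Slc5a6 was 1.19 to 1.40 in them. It was 1.32, again short of the threshold, without PBS replicate 2 and A2M replicate 1, the livers with the most adrenal and macrophage RNA. With DESeq2, alone or together with an edgeR exact test, Slc5a6 passed 0.01.

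**Figure D2:**
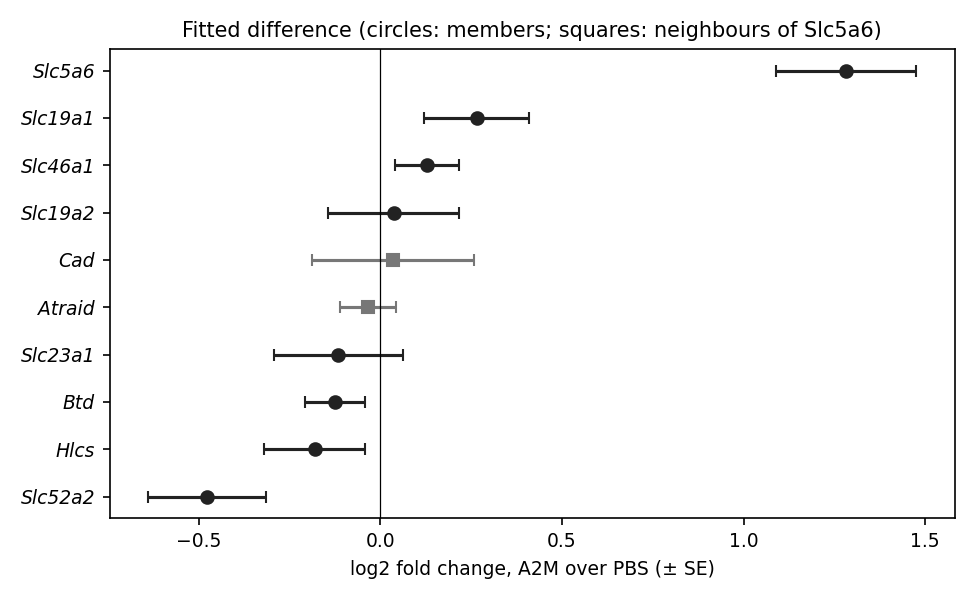
Fitted log2 fold change of A2M over PBS livers with its SE, for the 8 members that passed the low-count filter (circles) and the 2 neighbours of Slc5a6 (squares). Slc5a6 stands at 1.28 and the other members lie between -0.48 and 0.26, with the neighbours near 0.

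The folate carriers differed in level and in spread. Slc19a1, the reduced folate carrier, measured 2.33 at the lowest, 2.58 at the median and 4.0 RPKM at the highest in A2M livers, against 2.23, 2.35 and 2.43 RPKM in PBS livers. Replicate 4 alone accounted for the A2M maximum, and the coefficient of variation over the 5 PBS livers was 3.12%. The log2 fold change was 0.26 ± 0.15 (SE), and 0.13 without A2M replicate 4. Slc46a1, the proton-coupled folate transporter that also takes up folate in the intestine, was the highest member on average in A2M livers. It measured 30.8 ± 2.71 RPKM in A2M livers (SD, n = 6) and 28.5 ± 1.41 RPKM in PBS livers (SD, n = 5), with overlapping ranges of 27.0 to 35.5 RPKM and 27.3 to 30.7 RPKM. Its log2 fold change was 0.13 ± 0.09 (SE). Within groups it varied little: 7.09% of all genes tested had a smaller SD of log2 CPM (counts scaled to a common total).

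The thiamine transporters lay at opposite ends of the scale. Slc19a2 measured 17.4, 24.5, 35.2, 20.2, 29.1 and 38.2 RPKM in A2M livers 1 to 6, and 27.0, 30.0, 29.8, 23.1 and 25.5 RPKM in PBS livers 1 to 5. The A2M livers reached both above and below all PBS livers, with 2 livers above the highest and 2 below the lowest. The means were nearly equal, 27.4 ± 8.25 RPKM in A2M livers (SD, n = 6) and 27.1 ± 2.95 RPKM in PBS livers (SD, n = 5), and the log2 fold change was 0.04 ± 0.18 (SE). Slc19a3, the other thiamine transporter, was the member that failed the filter. It had 1, 2, 0, 2, 0 and 3 reads in A2M livers 1 to 6, and 1, 2, 1, 4 and 3 reads in PBS livers 1 to 5. With 8 reads over all A2M livers and 11 over all PBS livers, no difference was detectable at this depth and no fold is given.

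Slc52a2, a riboflavin transporter, was the member with the lowest log2 fold change. It measured 1.77, 1.76, 1.68, 2.65, 1.79 and 1.63 RPKM in A2M livers 1 to 6, and 3.14, 3.22, 2.82, 2.13 and 2.01 RPKM in PBS livers 1 to 5. Of the 6 A2M livers, 5 lay below the lowest PBS liver, and A2M replicate 4 lay among the PBS livers. The means were 1.88 ± 0.384 RPKM in A2M livers (SD, n = 6) and 2.67 ± 0.563 RPKM in PBS livers (SD, n = 5). The log2 fold change was -0.48 ± 0.16 (SE). Only 112 to 339 reads per liver stood behind them. Within each liver, Slc5a6 was 1.88 to 4.17 times Slc52a2 in A2M livers and 0.573 to 1.13 times in PBS livers. Slc5a6, selected on its difference, already separated the groups by itself, so nothing further is read from this ratio.

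Slc23a1, the sodium-dependent ascorbate transporter, measured 9.47 at the lowest, 13.7 at the median and 18.1 RPKM at the highest in A2M livers, against 10.01, 13.4 and 21.6 RPKM in PBS livers. Both groups covered about the same range, and the log2 fold change was -0.12 ± 0.18 (SE). Mice make ascorbate in the liver, through the oxidase Gulo, so this carrier moves a vitamin that the tissue also produces.

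Both biotin enzymes had small negative log2 fold changes, unlike the biotin transporter. Btd measured 27.1, 28.4, 27.9, 25.3, 26.4 and 28.9 RPKM in A2M livers 1 to 6, and 32.3, 28.3, 31.5, 29.9 and 28.5 RPKM in PBS livers 1 to 5. Of the A2M livers, 4 lay below the lowest PBS liver. The means were 27.3 ± 1.35 RPKM in A2M livers (SD, n = 6) and 30.1 ± 1.77 RPKM in PBS livers (SD, n = 5), and the log2 fold change was -0.13 ± 0.08 (SE). It was the steadiest member, with a smaller within-group SD in 3.98% of all genes tested. Of its exon bases in GENCODE, 108 (4.59%) are shared with Hacl1 on the other strand, a thiamine-dependent lyase that is named below. Hlcs ranged from 2.52 to 3.93 RPKM in A2M livers and from 2.93 to 4.68 RPKM in PBS livers. Its means were 3.41 ± 0.537 RPKM in A2M livers (SD, n = 6) and 3.94 ± 0.828 RPKM in PBS livers (SD, n = 5). The log2 fold change was -0.18 ± 0.14 (SE).

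On the RPKM scale, which divides by exon length, the members fell into a high and a low set. In A2M livers the order of the means was Slc46a1, Slc19a2, Btd, Slc23a1, Slc5a6, Hlcs, Slc19a1, Slc52a2 and Slc19a3. In PBS livers it was Btd, Slc46a1, Slc19a2, Slc23a1, Hlcs, Slc52a2, Slc19a1, Slc5a6 and Slc19a3. Slc5a6 ranked 5 of the 9 members in A2M livers and 8 in PBS livers. It was above Hlcs in 5 of the 6 A2M livers and in 0 of the 5 PBS livers. Likewise, Slc46a1 was above Btd in 5 of the 6 A2M livers and in 0 of the 5 PBS livers. Over all livers the ranges of Slc46a1, Slc19a2 and Btd overlapped, as did those of Hlcs, Slc19a1 and Slc52a2, whereas Slc23a1 was above Slc5a6 in all 11 livers with no overlap. Slc5a6 made up 3.54% to 9.13% of the summed RPKM of the 7 transporters in A2M livers and 2.09% to 3.44% in PBS livers.

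Slc5a6 was compared with a clock score, the mean standardised log2 level of 13 genes that peak around dusk minus that of 5 genes that peak around dawn. The score was 0.696 to 1.76 in A2M livers and -2.76 to -0.303 in PBS livers, with no overlap. Several of its genes were already reported by the study as differing in these livers, so this separation was partly fixed in advance. In RPKM, the groups did not overlap for 8 of the 13 dusk-phased and 3 of the 5 dawn-phased genes. Of all genes tested, 2.27% had such groups. These counts were partly fixed in advance in the same way, and nothing is read from them. Within the A2M group, the liver with the lowest score, replicate 6 at 0.696, had the lowest Slc5a6 level, and within the PBS group replicate 3 had the lowest score, -2.76, and the lowest level. The other 4 PBS livers did not follow the score. Replicate 1 had 2.46 RPKM at a score of -2.63, and replicate 5 had 2.28 RPKM at the highest PBS score, -0.303. Among A2M livers, replicate 4 was highest in both, with 7.10 RPKM at a score of 1.76. The order between was mixed: A2M replicate 3 had 6.98 RPKM at 1.18, and A2M replicate 2 had 4.74 RPKM at 1.45. With the score as a covariate, the log2 fold change of Slc5a6 was 0.70 ± 0.40 (SE) and no gene of the series passed the edgeR threshold, while 390 had an unadjusted p under 0.05. Because the score and the treatment separate the same livers, their parts cannot be told apart.

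**Figure D3:**
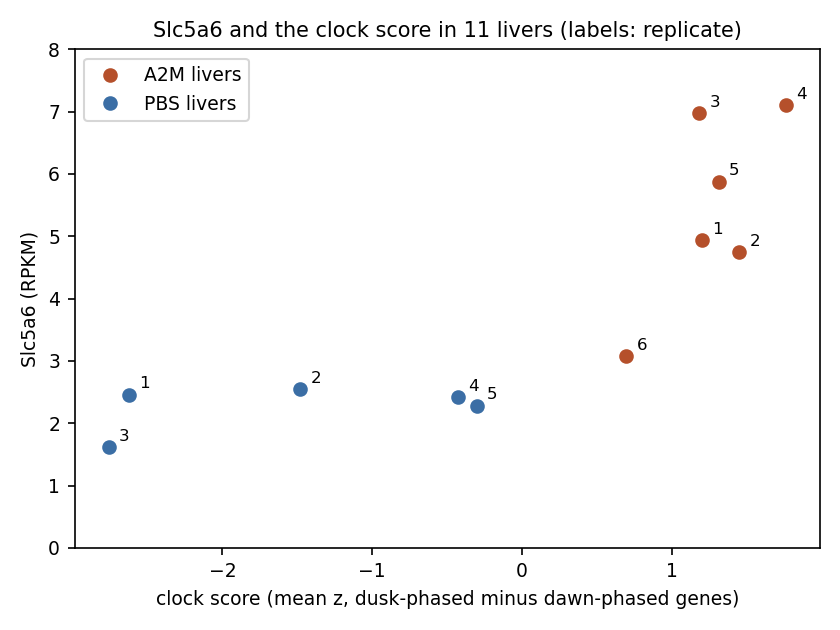
Slc5a6 level in RPKM against the clock score of the same liver, for 6 A2M livers and 5 PBS livers, each point labelled with its replicate number. The A2M livers lie at scores of 0.696 to 1.76 and the PBS livers at -2.76 to -0.303, with A2M replicate 6 lowest in both measures within its group.

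To find the genes that varied most like Slc5a6 from liver to liver, group means were removed from log2 CPM, and 9582 genes with a mean of at least 1 RPKM were ranked by Pearson's r with Slc5a6 over the 11 livers. The 5 highest were Ccdc137 (r = 0.92), the clock gene Per2 (r = 0.92), the gap junction gene Gjb2 (r = 0.90), the kinase gene Mknk1 (r = 0.89) and the G protein gene Gna11 (r = 0.88), with Spearman's rho from 0.75 to 0.94. Without A2M replicate 6 and PBS replicate 3, the 2 livers farthest from the median of group-centred Slc5a6, r was 0.71 to 0.92 over the other 9, with 0.80 for Per2. Per2, a repressor of the clock loop, measured 3.20, 3.78, 5.57, 7.30, 6.62 and 1.70 RPKM in A2M livers 1 to 6, and 1.92, 1.89, 0.718, 3.13 and 2.30 RPKM in PBS livers 1 to 5. Its highest A2M liver and its lowest PBS liver were those of Slc5a6. These genes were picked for their likeness out of 9582, so the values are a description. Among the members, r with Slc5a6 ran from -0.52 for Btd to 0.37 for Slc19a1. The closest other pair was Slc23a1 and Hlcs (r = 0.75), and the most opposed was Slc46a1 and Hlcs (r = -0.70).

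Genes that use or make the same vitamins were compared in 11 lists by their textbook roles, with 106 of 112 genes past the low-count filter. Of these 106, 0 passed the edgeR threshold, and 5 passed the same threshold with DESeq2, against 0.215% of all genes tested with edgeR and 2.27% with DESeq2. In RPKM, 6 of the 106 had groups that did not overlap, against 2.27% of all genes tested. Positive log2 fold changes were found for 72 and negative for 34, with a median of 0.09 against -0.01 over all genes tested, of which 48.9% were positive. An unadjusted p under 0.05 was found for 20 of the 106, against 14.7% of all genes tested.

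The targets of biotin come first. All 7 biotin-dependent carboxylases had a positive log2 fold change, with a median of 0.19, but none passed the threshold, by edgeR or by DESeq2. For 3 of them the unadjusted p was under 0.05. Pcx, the pyruvate carboxylase that starts gluconeogenesis, measured 114 ± 20.7 RPKM in A2M livers (SD, n = 6) and 89.5 ± 8.71 RPKM in PBS livers (SD, n = 5), a log2 fold change of 0.37 ± 0.13 (SE, edgeR adjusted p = 0.179). Acacb, the acetyl-CoA carboxylase that restrains fatty acid oxidation, had a log2 fold change of 0.69 ± 0.27 (SE, edgeR adjusted p = 0.253). The ranges of the groups overlapped for each of the 7 genes. The other cargoes of Slc5a6 gave no call either, by edgeR or by DESeq2, with 2 pantothenate genes and 0 lipoate genes at an unadjusted p under 0.05. Among 11 genes of pantothenate use and coenzyme A synthesis the median was -0.01, and Pank1, the kinase of the first step, had 0.30 ± 0.12 (SE, edgeR adjusted p = 0.261). Among 9 lipoate genes the median was 0.06 and the smallest edgeR adjusted p was 0.501.

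For the other carriers, none of the 12 genes of thiamine use, the 3 of riboflavin use and the 4 of ascorbate passed the threshold, with smallest edgeR adjusted p of 0.385, 0.460 and 0.646, and 0 had an unadjusted p under 0.05. Hacl1 measured 61.9 ± 21.1 RPKM in A2M livers (SD, n = 6) and 87.3 ± 25.6 RPKM in PBS livers (SD, n = 5), with overlapping ranges. In the folate list, Fpgs, which adds the glutamate tail that keeps folate in the cell, ranged from 31.4 to 56.4 RPKM in A2M livers and from 65.7 to 97.0 RPKM in PBS livers. The groups did not overlap, with a fitted difference of -0.81 ± 0.16 on the log2 scale (SE), short of the threshold (edgeR adjusted p = 0.0293). Mtrr, the reductase that keeps the vitamin B12 enzyme methionine synthase active, had 0.55 ± 0.14 (SE, edgeR adjusted p = 0.0711).

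The vitamin B6 and niacin lists, with no carrier among the members, held 3 genes whose groups did not overlap and that missed the threshold. Pdxk, the kinase that makes pyridoxal phosphate from vitamin B6, ranged from 12.9 to 23.0 RPKM in A2M livers and from 6.91 to 11.9 RPKM in PBS livers, a log2 fold change of 0.85 ± 0.16 (SE, edgeR adjusted p = 0.0256). Nampt, the rate-limiting enzyme of the salvage of nicotinamide to NAD, ranged from 12.2 to 26.3 RPKM in A2M livers and from 6.46 to 11.2 RPKM in PBS livers, a log2 fold change of 0.98 ± 0.21 (SE, edgeR adjusted p = 0.0417). Nadk, the kinase that makes NADP from NAD, ranged from 59.5 to 85.0 RPKM in A2M livers and from 42.6 to 57.0 RPKM in PBS livers (edgeR adjusted p = 0.0887). Pdxp of the vitamin B6 list had the highest log2 fold change of all list genes tested, 2.49 ± 0.71 (SE, edgeR adjusted p = 0.113). It passed 0.01 with DESeq2, but its groups overlapped, at 0.0828 to 2.95 RPKM in A2M livers and 0.0952 to 0.260 RPKM in PBS livers. Fpgs, Pdxk and Nampt passed 0.01 where an edgeR exact test and DESeq2 were both required. With the clock score as a covariate their log2 fold changes were -0.46 ± 0.32, 1.05 ± 0.36 and -0.05 ± 0.31 (SE), and none passed the edgeR threshold. Among the 14 genes of fat-soluble vitamin handling the median was 0.11, and the smallest edgeR adjusted p was 0.217, for Cyp27a1, a hydroxylase of vitamin D and bile acid synthesis.

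**Figure D4:**
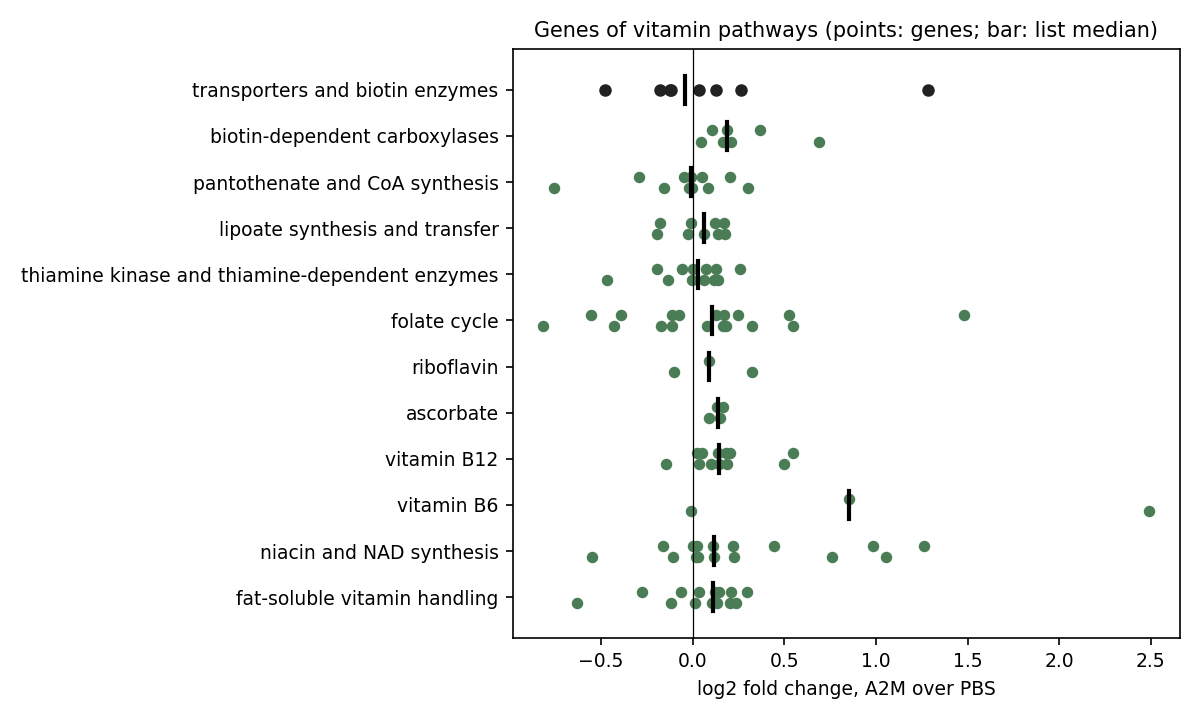
Log2 fold change of A2M over PBS livers for the 8 members tested and for the 106 tested genes of the 11 vitamin lists, with 1 row per list, points for genes and a bar at the median of the points shown. Slc5a6 stands at 1.28 in the top row, the 7 biotin-dependent carboxylases all lie right of 0 with a median of 0.19, and most points of the other rows lie near 0.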

How the data were processed

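Liver RNA was sequenced as single reads from TruSeq libraries, which do not keep the strand. Per the labels and the study's methods, the authors used bcl2fastq 1.8.4, TopHat2 and featureCounts on mm10 with RefSeq genes. They deposited read counts per gene, RPM and RPKM. RPM is the count scaled to a common library total, and RPKM is RPM per kilobase of exon. Levels are the deposited RPKM. Differences were fitted to the deposited counts of all 11 livers (6 A2M, 5 PBS) with edgeR 4.0.16 in R 4.3.3 (TMM, filterByExpr, quasi-likelihood F-test, Benjamini-Hochberg over 12581 genes), with a threshold of 0.01 and the code tested on simulated data. DESeq2 1.42.0, other scalings, no filter, a clock score, an adjusted p of 0.05 and leaving out each liver were alternatives. A fit without both PBS replicate 2 and A2M replicate 1 was chosen after seeing the data. Members and lists were chosen with earlier results of these data known. Named genes are the members, the genes next to Slc5a6, up to 4 genes per vitamin list with the smallest p and any past the threshold, and the 5 most like Slc5a6. A gene of the vitamin lists that the rule picks is not reported here and is left out of the lists' counts. Marker lists were hepatocyte, macrophage and Kupffer cell, endothelium, stellate cell, cholangiocyte, leukocyte, fat, adrenal, pancreas, and kidney and intestine. Replicate numbers follow accession order and only name livers.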

Additional observations from a re-analysis of the deposited data

Results flagged for a closer look

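In 16 groups of liver values, the 8 tested members in A2M and PBS livers, the gap between the most extreme liver and its nearest neighbour was divided by the range of the group. In 3 groups this ratio was above the 95% critical value, where chance gives about 1 in 20. For Slc52a2 the ratio was 0.845 in A2M livers, where replicate 4 had 2.65 RPKM and the next liver 1.79 RPKM. For Slc19a1 it was 0.784 in A2M livers, where the same replicate had 4.0 RPKM and the next liver 2.69 RPKM. Without A2M replicate 4 the log2 fold changes were -0.60 for Slc52a2 and 0.13 for Slc19a1. For Slc5a6 the ratio was 0.719 in PBS livers, where replicate 3 had 1.62 RPKM and the next liver 2.28 RPKM.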

How the results depend on the processing

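The 27 genes past the threshold became 286 with DESeq2, 185 with an edgeR exact test and DESeq2 both required, 154 at an adjusted p under 0.05, 10 without both PBS replicate 2 and A2M replicate 1 (added after seeing the data), and 0 with the clock score as a covariate, where 390 genes had an unadjusted p under 0.05. Leaving out 1 liver at a time gave 6 to 35. The count of vitamin list genes past the threshold, 0, became 5 with DESeq2, 3 with both tests and 3 at an adjusted p under 0.05, and was 0 with the clock score and in each of the 11 fits without 1 liver. The log2 fold change of Slc5a6 was positive in all 18 alternatives, 0.70 to 1.40. Slc5a6 was selected on its difference in these livers, so its call is no independent evidence. The call at 0.01 held with another scaling (RLE), with no low-count filter, with DESeq2, and with an edgeR exact test and DESeq2 both required. The call held in 1 of the 11 fits without 1 liver (log2 fold change 1.19 to 1.40). It was lost with library totals alone (1.27), without both livers named above (1.32) and with the clock score (0.70). Slc19a2 changed sign among the alternatives, from -0.09 to 0.46, and Slc23a1 from -0.22 to 0.03. Low read counts limit Slc19a3 and, less so, Slc52a2 and Slc19a1. No paired analysis was possible because the labels pair no A2M liver with a PBS liver. The cause of these shifts was not tested.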
